A study of Mus musculus with 6 samples.

Results

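The 9 genes described here encode proteins that move membrane and cargo inside the cell: the small GTPases *Rab2a* and *Arf5*, the golgin *Gcc1*, the SNARE *Bet1*, the clathrin light chain *Clta*, the endosomal tethering subunit *Ccdc132* (now named *Vps50*), the adaptor *Sdcbp*, the vesicle priming factor *Cadps2* and the dynein intermediate chain *Dync1i1*. They were chosen by Ensembl identifier and by position, and all 9 passed the position rule, out of 55359 rows in the table. Their messenger RNA was compared between 3 libraries of UN-SCC679 and 3 of UN-SCC680, cell lines derived from lung squamous cell carcinomas that N-nitroso-tris-chloroethylurea (NTCU) had induced in A/J mice. Each line came from 1 tumor of a different mouse, was passed through immunodeficient and then A/J hosts, and was sequenced without treatment. Libraries of normal cells were not analysed here. The labels do not say whether the 3 libraries of a line came from separate cultures, so p-values measure the spread between these libraries, which may be technical.

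Secretory proteins leave the endoplasmic reticulum in coated vesicles, pass through the Golgi and reach the surface or the endosomes. Small GTPases mark each membrane and recruit tethers such as golgins, SNAREs drive the fusion, clathrin coats form buds at the Golgi and the plasma membrane, and cytoplasmic dynein carries vesicles and the Golgi itself towards the minus ends of microtubules. In epithelial cells this traffic also sets which surface receives which protein.

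The position rule was needed because most gene positions in the deposited table are not those of GRCm38 (mm10), the build that the submitters' processing notes name. The start of chromosome 4 up to 58.6 Mb and that of chromosome 6 up to 29.5 Mb are stretches where both agree, and they hold 1144 rows. Of the 627 of these that could be matched to a RefSeq gene of GRCm38.p6 on the same chromosome, 425 matched it to 10 bases at either end. *Rab2a*, *Gcc1* and *Sdcbp* have neither end within 10 bases of the RefSeq gene. The *Rab2a* row differs by 175 and 76 bases at its start and end. The *Gcc1* row reaches 6665 bases further on the side of its transcription start, and the *Sdcbp* row 12301 bases further on the side of its transcript end. Of 39 relatives checked for position alone, 0 lie in these windows, so they could not be read. Among them are the dynein heavy chain, the clathrin heavy chain and the partners of VPS50. They also include the dynactin genes *Dctn1*, *Dctn2*, *Dctn4*, *Dctn5* and *Dctn6*. The dynactin gene *Dctn3* was not among these relatives, lies in the chromosome 4 window and is described below.

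Libraries held 3568293 to 4381885 counts, of which 18.0% to 18.9% fell on mitochondrial rows. None of the 8 squamous and basal epithelial markers checked lies in the windows, so the labelled cell type could not be checked. Of the markers of other cell types, *Col1a2* (1 of 6 fibroblast genes in the windows) had 26677 to 29001 normalized CPM in UN-SCC679 and 2194 to 2374 in UN-SCC680. The B cell genes *Cd72* and *Pax5* had at most 10 counts in any library. The part of these differences in the results below was not tested. Below, CPM are counts brought to a library total of 1000000, with TMM factors that balance libraries over all rows, most of which lie outside the windows. In bulk RNA, fewer cells with a transcript and less transcript per cell cannot be told apart.

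Of the 9 genes, 8 had enough counts to be tested. Between the lines, 7 of these differed at an adjusted p-value under 5e-05 (edgeR). The study used this limit with DESeq2 for each line against normal lung cells, with a fold limit besides in its volcano plots. *Rab2a*, *Arf5*, *Gcc1*, *Clta* and *Sdcbp* were higher in UN-SCC680, by 1.35-fold to 1.58-fold. *Ccdc132* and *Cadps2* were lower, *Cadps2* without a single count in UN-SCC680. *Bet1* did not pass the test, and *Dync1i1* was at or under 3 counts in every library of both lines. Of all tested rows in the table, 30.4% differed, 15.3% higher and 15.2% lower in UN-SCC680. Only 343 of the 8987 tested rows lie in the readable windows, and the others could not be read as the genes they name, so the first share describes rows of the table and not known genes. In the readable windows the share was 53.9%, so a difference between the lines was common among the neighbors of these genes.

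**Figure D1:**
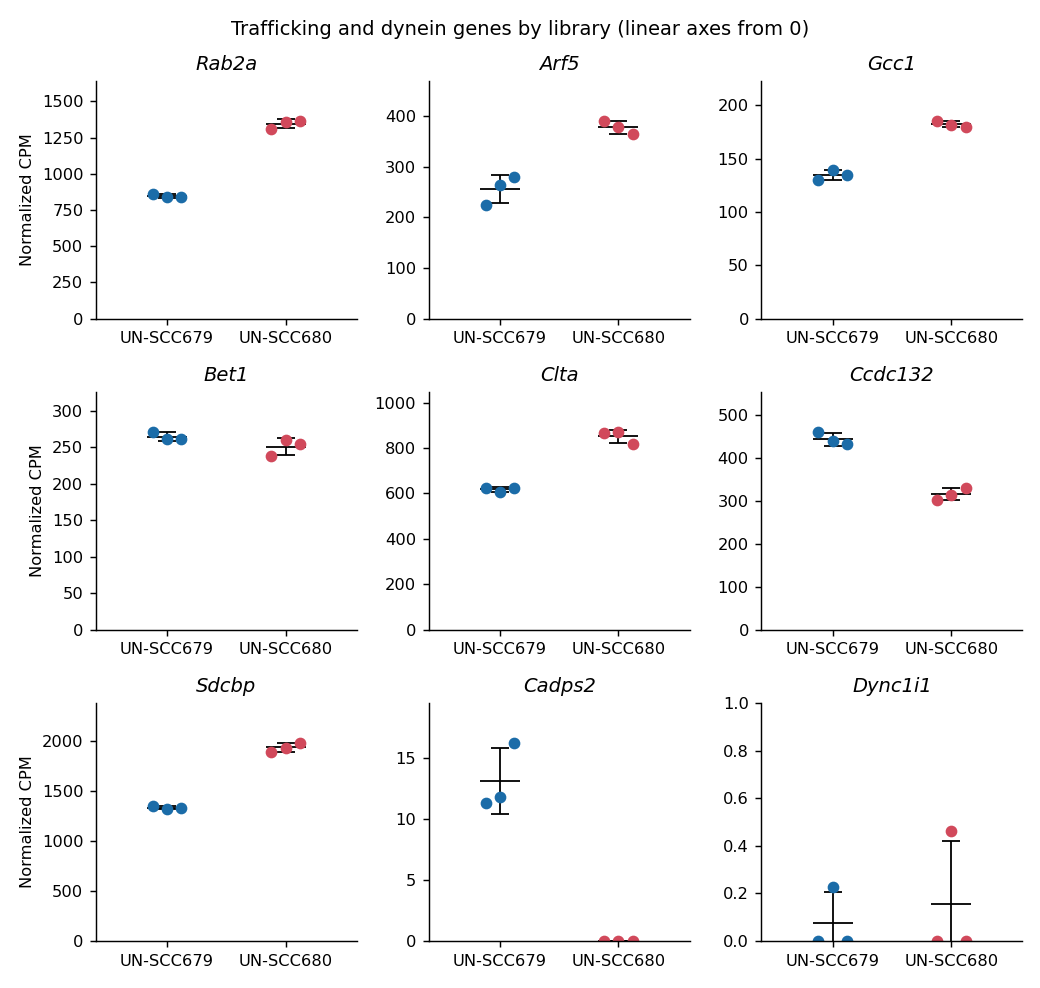
Normalized CPM (linear y axes from 0) of the 9 genes in the 3 UN-SCC679 libraries (blue) and the 3 UN-SCC680 libraries (red), 1 point per library, with bars for the mean and SD. The red points of *Rab2a*, *Arf5*, *Gcc1*, *Clta* and *Sdcbp* all lie above the blue ones, those of *Ccdc132* below, those of *Cadps2* at 0, and *Dync1i1* stays under 0.5 CPM.

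RAB2A is a GTPase of the early secretory pathway that acts between the endoplasmic reticulum and the Golgi. Its gene (ENSMUSG00000047187.10) lies on chromosome 4, 8535644 to 8607778, on the + strand, and the counts are those of its exons. In UN-SCC679 it had 863, 843 and 839.5 normalized CPM, and in UN-SCC680 1308, 1358 and 1367. The libraries of the lines stood far apart. The means were 849 ± 13.0 and 1344 ± 31.5 CPM (SD, n = 3 each), a 1.58-fold higher level in UN-SCC680 (log2 fold change 0.66, standard error 0.03, adjusted p = 2.93e-22 from edgeR). This was the largest increase among the 8 tested genes. The nearest tested rows by start were *Nsmaf*, 2139437 bases away and next to *Sdcbp*, and *Gm11809*, 136989 bases away. *Nsmaf* was also higher in UN-SCC680 (edgeR log2 fold change 0.55, adjusted p = 1.21e-15). *Gm11809* had 10 to 25 counts per library and did not pass the test (-0.74).

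ARF5 is a GTPase that helps to recruit coats to Golgi membranes, and GCC1 is a golgin, a long coiled-coil protein that tethers vesicles at the trans-Golgi. Their genes are neighbors on chromosome 6 that point away from each other, with RefSeq transcription starts 1880 bases apart. The table places *Arf5* (ENSMUSG00000020440.14) at 28423559 to 28426601 on the + strand and *Gcc1* (ENSMUSG00000029708.10) at 28416090 to 28428389 on the - strand. The long *Gcc1* row spans *Arf5*, and 313 exonic bases are shared between them, 16.4% of those of *Arf5* and 5.92% of those of *Gcc1*. The setting for strand is not stated, so reads in these bases cannot be told apart. The 250 bases before each start, from RefSeq on GRCm38.p6, are shown because both genes were higher in UN-SCC680. They are written 5′ to 3′ on the strand of the gene. Capitals mark matches on either strand to 4 short motifs, the GC box GGGCGG, the CCAAT box CCAAT, the TATA box TATAAA and the E-box CACGTG, none of which overlap here.
Arf5 (chr6:28423354-28423603, + strand): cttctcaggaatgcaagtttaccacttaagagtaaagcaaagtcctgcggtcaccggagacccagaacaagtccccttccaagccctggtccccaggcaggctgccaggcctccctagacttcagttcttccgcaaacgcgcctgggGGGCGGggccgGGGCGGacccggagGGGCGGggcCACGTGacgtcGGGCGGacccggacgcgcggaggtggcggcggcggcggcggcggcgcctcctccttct
Gcc1 (chr6:28421725-28421974, - strand): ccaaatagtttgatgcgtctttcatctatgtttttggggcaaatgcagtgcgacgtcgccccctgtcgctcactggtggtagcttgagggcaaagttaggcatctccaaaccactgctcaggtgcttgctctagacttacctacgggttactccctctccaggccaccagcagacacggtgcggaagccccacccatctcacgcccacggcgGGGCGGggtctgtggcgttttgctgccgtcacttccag
The *Arf5* sequence holds 4 GC boxes and 1 E-box, and that of *Gcc1* holds 1 GC box. Neither has a CCAAT or TATA box. Among 32851 promoter sequences of the same length, 32.7% hold a GC box, 6.02% the E-box, 33.8% a CCAAT box and 12.4% a TATA box. These matches describe the sequence and are not evidence of binding.

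*Arf5* had 225, 264 and 279 normalized CPM in UN-SCC679 and 391, 378 and 364 in UN-SCC680. Its UN-SCC679 libraries were the most uneven among the 7 members with 1000 counts or more. Their coefficient of variation was 10.8%, against a median of 2.88% over these 7 members and both lines. The lines still did not overlap. The means were 256 ± 27.6 and 378 ± 13.1 CPM (SD, n = 3 each), 1.48-fold higher in UN-SCC680 (log2 fold change 0.56, standard error 0.05, adjusted p = 3.70e-13 from edgeR). *Gcc1* had 129.7, 139 and 134 normalized CPM in UN-SCC679 and 186, 182 and 180.0 in UN-SCC680. Each UN-SCC680 library was above each UN-SCC679 library. Its level was 1.35-fold higher there (log2 fold change 0.44, standard error 0.05, adjusted p = 2.95e-09 from edgeR). The call for *Gcc1* depends on the scaling. With TMM factors computed within the readable windows, which lower the median log2 fold change of all rows by 0.23, its value was 0.20 and no longer passed (adjusted p = 0.00151 from edgeR). On the other sides, the nearest tested rows were *Gm5303*, lower in UN-SCC680 (edgeR log2 fold change -0.81, adjusted p = 5.05e-09), and *Snd1*, which did not pass the test (-0.12).

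BET1 is a SNARE on vesicles that run from the endoplasmic reticulum to the Golgi. Its gene (ENSMUSG00000032757.7) lies on chromosome 6, 4076899 to 4086972, on the - strand. It had 271, 261 and 261 normalized CPM in UN-SCC679 and 237, 260.4 and 254 in UN-SCC680. The UN-SCC680 libraries lay just under the others, and the closest libraries of the lines were nearly level. The means were 264 ± 5.61 and 251 ± 11.8 CPM (SD, n = 3 each). The log2 fold change of -0.08 had a 95% interval of -0.17 to 0.02 and did not pass the test (adjusted p = 0.158 from edgeR), so a decrease of the size of the interval's lower end remains possible. Absence of overlap alone says little here, since 62.2% of all tested rows had none. Scaled within the windows, *Bet1* was called as lower (log2 fold change -0.31, adjusted p = 3.93e-07 from edgeR). The nearest tested rows were *Ccdc132*, given below, and ENSMUSG00000098779, which did not pass the test (log2 fold change 0.24).

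CLTA is a light chain of clathrin, the coat of vesicles that bud from the plasma membrane and the trans-Golgi. Its gene (ENSMUSG00000028478.19) lies on chromosome 4, 44004452 to 44032846, on the + strand. The UN-SCC679 libraries had 624, 605 and 626 normalized CPM and the UN-SCC680 libraries 867, 872 and 819. The spread within a line was small beside the gap between the lines. With means of 618 ± 11.7 and 852 ± 29.1 CPM (SD, n = 3 each), it was 1.38-fold higher in UN-SCC680 (log2 fold change 0.46, standard error 0.04, adjusted p = 1.96e-15 from edgeR). The nearest tested rows were *Glipr2*, far higher in UN-SCC680 (edgeR log2 fold change 6.75, adjusted p = 3.11e-41), and *Gne*, which did not pass the test (0.21).

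VPS50, the product of *Ccdc132*, is a subunit of the EARP complex, which tethers vesicles that recycle cargo from endosomes. The gene (ENSMUSG00000001376.18) lies on chromosome 6, 3498382 to 3603531, on the + strand. It had 461, 439 and 431 normalized CPM in UN-SCC679, against 303, 315 and 329.9 in UN-SCC680. Every UN-SCC680 library was lower. The means of 444 ± 15.3 and 316 ± 13.7 CPM (SD, n = 3 each) stood 1.40-fold apart (edgeR log2 fold change -0.49 with a standard error of 0.04, adjusted p = 1.02e-13). *Bet1*, the next tested row on the chromosome, starts 578517 bases away. On the other side *Samd9l*, 126125 bases away, did not pass the test either (log2 fold change -0.08). Whether these rows differ from *Ccdc132* in their change was not tested.

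SDCBP, also called syntenin, is a PDZ adaptor that links syndecans to endosomal sorting and to the making of exosomes. Its gene (ENSMUSG00000028249.16) lies on chromosome 4, 6365650 to 6408423, on the + strand, extends past the RefSeq end by 12301 bases, and shares 78 exonic bases with *Nsmaf* on the other strand. It had the most counts of the 9 genes, with 1346, 1315 and 1326 normalized CPM in UN-SCC679 and 1891, 1929.9 and 1977 in UN-SCC680. The means were 1329 ± 15.5 and 1933 ± 43.4 CPM (SD, n = 3 each), 1.45-fold higher in UN-SCC680 (log2 fold change 0.54, standard error 0.03, adjusted p = 3.86e-20 from edgeR). Again the lines did not overlap. The rows on either side, *Ubxn2b* and *Nsmaf*, were higher in UN-SCC680 by similar amounts (log2 fold changes 0.65 and 0.55).

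CADPS2 primes dense-core vesicles for release and is best known from neurons and endocrine cells. Its gene (ENSMUSG00000017978.19) spans 576649 bases of chromosome 6, 23262772 to 23839420, on the - strand. The counts were 42, 52 and 58 in the UN-SCC679 libraries and 0 in each UN-SCC680 library. A low level was thus present throughout UN-SCC679, and the gene was not detectable in UN-SCC680 at this depth, where a count of 0 allows up to 3 counts per library, or 0.685 to 0.707 CPM. By library size the UN-SCC679 mean was 13.2 ± 2.69 CPM (SD, n = 3), so that the level was at least 18.9-fold lower in UN-SCC680 when each of its libraries was set to this floor, counting error alone considered. The difference passed the test (adjusted p = 2.62e-16 from edgeR), while the fitted fold change rests on the prior count and is not given. This was the only one of the tested genes with an absolute log2 fold change over 1, a size that 11.4% of all rows reached together with the threshold.

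No other gene shares exonic bases with *Cadps2*. The nearest tested rows on each side did not pass the test. ENSMUSG00000106803, an identifier without a matched symbol, had 19 to 29 counts in UN-SCC679 and 39 to 52 in UN-SCC680, and *Ndufa5*, a subunit of respiratory complex I, had an edgeR log2 fold change of -0.21 with an adjusted p of 0.000156. Both rows had counts in every UN-SCC680 library. Of 335 other tested rows in the windows, that with the pattern nearest to *Cadps2* was *Cttnbp2*, which encodes a cortactin-binding protein and lies on chromosome 6 as well. It had 38, 44 and 38 counts in UN-SCC679 and 0 in each UN-SCC680 library, and a distance of 0.515 over the 6 centred log2 CPM values. *Lpar1* on chromosome 4 and *Asb4* on chromosome 6 followed at distances of 1.06 and 1.09. *Lpar1* and *Asb4* were far lower in UN-SCC680 but still present, with 150 to 175 and 5 to 12 counts per library. With the prior count of 2, this distance depends on the level in UN-SCC679 as well as on the fall. Steep falls were not confined to these rows. Larger fitted decreases than that of *Cadps2* were found on chromosome 6 for *Casd1*, *Pdk4*, *Cftr*, *Peg10*, *Flnc* and *Slc25a13*. Their edgeR log2 fold changes were -12.3, -11.2, -9.86, -9.62, -9.34 and -9.01. *Decr1* on chromosome 4 had -11.9. The fitted value of *Cadps2* rests on the prior count, so this order does not rank the steepness of the falls.

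DYNC1I1 is an intermediate chain of cytoplasmic dynein that binds dynactin and cargo, found above all in neurons, whereas its paralog DYNC1I2 is widespread. The row of *Dync1i2* could not be read. *Dync1i1* (ENSMUSG00000029757.17) lies on chromosome 6, 5725639 to 6028039, on the + strand. It had 0, 1 and 0 counts in the UN-SCC679 libraries and 0, 2 and 0 in the UN-SCC680 libraries. Both lines were at or under 3 counts, which corresponds to 0.685 to 0.841 CPM, and no fold change is given. Its neighbors, named after their values were seen, behaved otherwise. *Pdk4*, a kinase that inhibits pyruvate dehydrogenase, had 1605 to 1973 counts in UN-SCC679 and at most 1 in UN-SCC680, and *Slc25a13*, a mitochondrial aspartate and glutamate carrier, had 1082 to 1294 counts and 2 to 3. *Dync1i1* was thus near 0 in UN-SCC679 although the genes on both sides of it were well expressed there.

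The sequences before a start of *Cadps2* and of *Dync1i1* are shown because these were the genes without counts in UN-SCC680 and with almost none in either line. They come from RefSeq on GRCm38.p6, with the same capitals as above. The *Cadps2* stretch lies next to the end of its row, which stops 1755 bases short of the RefSeq gene's start. It is therefore inside that gene. That of *Dync1i1* runs up to the start of its row, 39 bases inside the RefSeq gene. Neither stretch is thus the one before the outermost RefSeq start.
Cadps2 (chr6:23839422-23839671, - strand): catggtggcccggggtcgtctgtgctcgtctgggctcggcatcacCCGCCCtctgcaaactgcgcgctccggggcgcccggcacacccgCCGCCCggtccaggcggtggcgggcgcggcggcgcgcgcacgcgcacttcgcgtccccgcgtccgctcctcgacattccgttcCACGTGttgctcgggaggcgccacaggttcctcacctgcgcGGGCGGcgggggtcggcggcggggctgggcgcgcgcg
Dync1i1 (chr6:5725389-5725638, + strand): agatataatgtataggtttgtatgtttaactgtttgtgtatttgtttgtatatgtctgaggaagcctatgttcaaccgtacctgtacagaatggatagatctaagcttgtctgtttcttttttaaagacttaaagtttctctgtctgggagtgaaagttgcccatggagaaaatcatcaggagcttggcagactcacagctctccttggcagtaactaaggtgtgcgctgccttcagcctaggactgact
They differ widely in composition. The *Cadps2* sequence is 78.0% G and C and holds 44 CpG dinucleotides, 3 GC boxes and 1 E-box. That of *Dync1i1* is 40.8% G and C and holds 2 CpG dinucleotides and no match to the 4 motifs. The medians over all 32851 promoter sequences were 52.4% and 6 CpG. RefSeq promoter sequences were found for 7 of the 9 genes, not for *Rab2a* and *Sdcbp*.

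The members were also set beside all tested rows of their own window, the members included, 54.3% of which differed on chromosome 4 and 52.8% on chromosome 6. All 3 members on chromosome 4, *Rab2a*, *Clta* and *Sdcbp*, were higher in UN-SCC680, in a window where 42.9% of the 254 tested rows were higher and 11.4% lower, with a median log2 fold change of 0.29. Relative to that median, *Rab2a* was higher by 0.37 on the log2 scale, *Sdcbp* by 0.25 and *Clta* by 0.18. In the order of the 254 rows from the highest log2 fold change down they ranked 45, 64 and 79, so they lay in the upper part of the window without being extreme. Among the 5 tested members on chromosome 6, *Arf5* and *Gcc1* were higher and *Ccdc132* and *Cadps2* lower, where 25.8% of the 89 tested rows were higher and 27% lower and the median was -0.02. *Arf5* ranked 14 and *Gcc1* 20 among the 89 rows, *Bet1* 47, *Ccdc132* 66 and *Cadps2* 83.

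**Figure D2:**
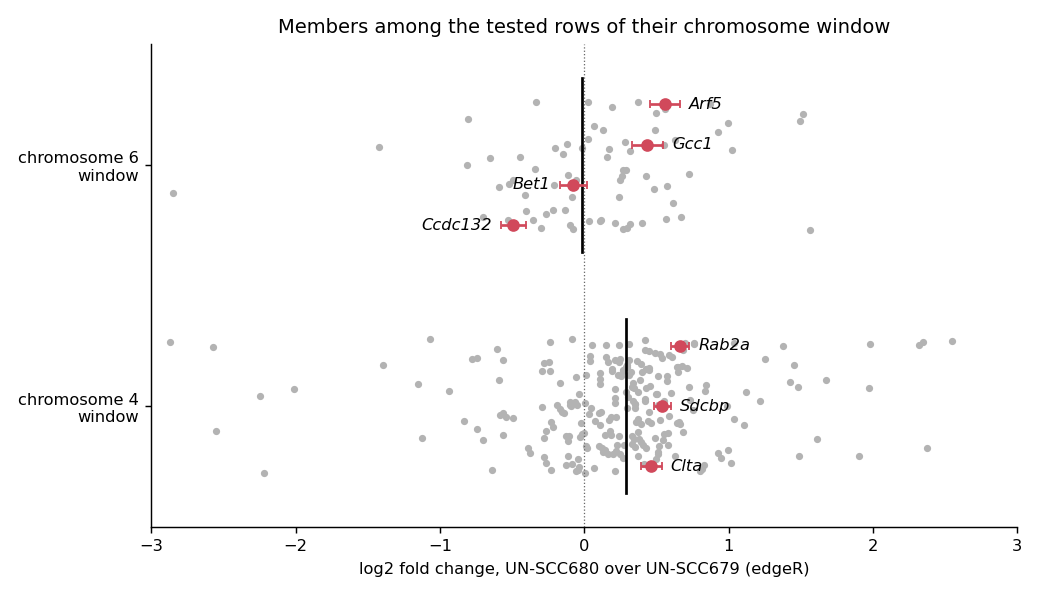
Log2 fold change of UN-SCC680 over UN-SCC679 (x axis) for the tested rows of the windows on chromosomes 4 and 6 (grey, spread vertically for visibility), with the window's median as a black line and 7 members in red with 95% intervals. The chromosome 4 members lie to the right of a median of 0.29 and those of chromosome 6 on both sides of -0.02, and 10 and 13 rows beyond 3 in either direction, *Cadps2* among them, are not drawn.

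Levels were compared between genes per length, as normalized CPM per kilobase of exon. In UN-SCC679 the order was *Rab2a* (398 ± 6.09), *Clta* (343 ± 6.51), *Sdcbp* (192 ± 2.25), *Arf5* (134 ± 14.5), *Bet1* (70.9 ± 1.51), *Ccdc132* (40.9 ± 1.41), *Gcc1* (25.4 ± 0.916) and *Cadps2* (1.37 ± 0.282), each as mean and SD of 3 libraries. No neighbors in this order overlapped between libraries. In UN-SCC680 the first 5 genes had the same places, from 630.2 ± 14.8 for *Rab2a* to 67.2 ± 3.17 for *Bet1*. *Gcc1* (34.5 ± 0.546) then stood above *Ccdc132* (29.1 ± 1.26), which is the only exchange of places between the lines, and again no neighbors overlapped. *Rab2a* and *Clta* were thus the most abundant per length in both lines and *Cadps2* the least in UN-SCC679, with *Dync1i1* at or under the floor in both lines. Rows whose exons are used only in part have their level understated on this scale.

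**Figure D3:**
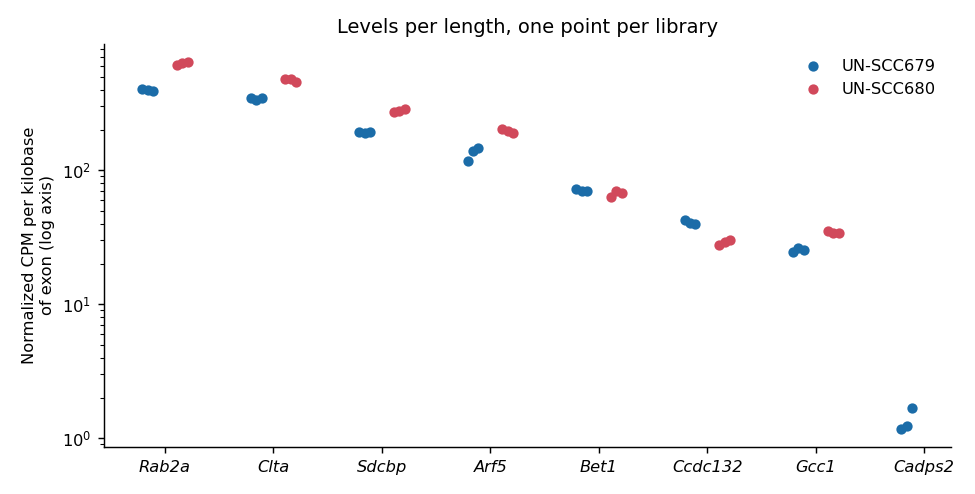
Normalized CPM per kilobase of exon (log y axis) of the 8 genes above 3 counts in at least 1 line, 1 point per library, ordered by their level in UN-SCC679 (blue) with UN-SCC680 in red. *Rab2a* and *Clta* lie highest in both lines, *Gcc1* and *Ccdc132* exchange places, and *Cadps2* has no red points because its counts there were 0.

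Other genes of membrane traffic and of microtubule motors in the windows were described for comparison. Of 30 listed, 29 lie in a window (*Plaa* does not), 26 could be tested and 15 differed, 10 higher and 5 lower in UN-SCC680. That is 57.7% of those tested, near the 53.9% of all rows in the windows. Their median log2 fold change was 0.07, against 0.23 over the windows and -0.0028 over all rows. With library totals alone as scaling, 8 were higher and 7 lower, and with TMM factors from the windows 7 were higher and 12 lower. On chromosome 4, 8 of 10 differing genes were higher, and on chromosome 6, 2 of 5.

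The 3 genes of microtubule motors and dynamics, named after their values were seen, were all higher in UN-SCC680. All 3 lie in the chromosome 4 window, where 42.9% of the tested rows were higher and 11.4% lower. *Dctn3*, a subunit of the dynactin complex with which dynein works, rose from 183 ± 15.0 to 288 ± 6.44 normalized CPM (SD, n = 3 each, edgeR log2 fold change 0.65, adjusted p = 5.86e-15). *Kif24*, a kinesin, and *Rmdn1*, a regulator of microtubule dynamics, had log2 fold changes of 0.51 and 0.76. These 3 genes kept their calls under each scaling tried. *Capza2*, which was grouped apart under actin and dynactin capping and is given below, did not.

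*Tbc1d2*, which encodes a GTPase-activating protein for RAB7, had the highest increase among the 26 tested genes of this list, from 11.1 ± 1.73 to 24.0 ± 0.614 normalized CPM (SD, n = 3 each, edgeR log2 fold change 1.12, adjusted p = 1.41e-08). *Rragd*, a GTPase that signals amino acid supply at the lysosome, had the largest decrease among them, from 20.4 ± 1.55 to 2.28 ± 0.706 CPM (edgeR log2 fold change -3.15, adjusted p = 1.73e-16). These were the only ones of the 26 with an absolute log2 fold change over 1. The 3 genes too low to be tested are not ranked. Of these, *Clvs1*, which encodes a clathrin-associated lipid-binding protein, had 0 counts in each UN-SCC679 library and 8, 5 and 4 in UN-SCC680, at least 1.69-fold higher with the 0 counts set to the floor of 3 per library. *Ica1*, a gene of dense-core vesicle biology, had 2, 4 and 5 counts in UN-SCC679 and 0 in each UN-SCC680 library, and *Atp6v0d2*, a subunit of the vacuolar proton pump, had 1 count in all. Among the most abundant, *Vcp*, an ATPase that extracts proteins from membranes, fell from 2762 to 1833 CPM (log2 fold change -0.59, adjusted p = 1.32e-22 from edgeR). *Capza2*, an actin capping subunit, was higher by 0.17 on the log2 scale (adjusted p = 4.32e-06 from edgeR), but its call was lost with library totals as scaling (0.14) and its sign turned when scaled within the windows (-0.06). *Calu*, a calcium-binding protein of the secretory pathway, had a log2 fold change of -0.10 and did not pass (adjusted p = 0.000851 from edgeR), but it was called as lower with limma-voom (adjusted p = 1.72e-06) and with library totals as scaling (log2 fold change -0.13, adjusted p = 1.72e-05 from edgeR). The caveolar genes *Cav1* and *Cav2* were lower in UN-SCC680 by 0.36 and 0.34 on the log2 scale, and *Tmem106b*, a lysosomal membrane protein, by 0.27. The remaining genes of the list called as higher were *Cpne3*, *Nsmaf*, *Chmp5*, *Plekhf2* and *Mios* (edgeR log2 fold changes 0.59, 0.55, 0.45, 0.33 and 0.27). None of the 3 genes of entry into the endoplasmic reticulum and its lumen (*Sec61b*, *Erp44* and *Calu*) passed the edgeR test with TMM factors over all rows, while all 3 were called as lower when scaled within the windows (log2 fold changes -0.38, -0.34 and -0.33).

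**Figure D4:**
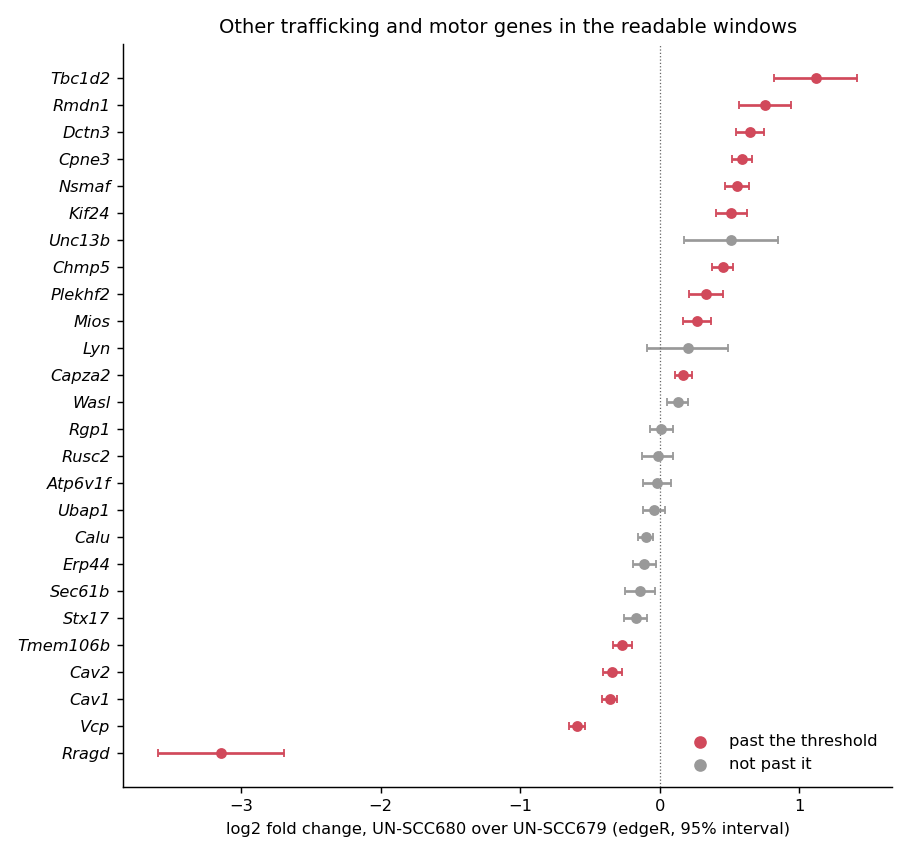
Log2 fold change of UN-SCC680 over UN-SCC679 (x axis) with 95% intervals for the 26 tested genes of membrane traffic and microtubule motors in the windows, red where past the threshold and grey where not. *Tbc1d2* at 1.12 and *Rragd* at -3.15 are the ends of the range, and 15 genes are red.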

How the data were processed

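RNA was measured in 6 libraries, 3 per line, and columns were matched to libraries by line and replicate number in their names (0 columns unused). In 1 table the authors deposited whole-number counts for each Ensembl gene, not normalized, with exon positions and exonic length. Their methods name Trimmomatic, Kallisto pseudoalignment to mm10 and DESeq2. The submitters' processing notes name featureCounts, whose layout the table has, and mm10. The annotation and the strand setting are not given in the sources used here. Library totals of 3568293 to 4381885 counts limit the precision, and intervals from counts cover counting error only. Libraries of the same line differed beyond sampling noise and each was used as 1 sample.

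Symbols came from an Ensembl name table (31021 identifiers matched) and positions from RefSeq GRCm38.p6. The members, the related genes and the tests were chosen with earlier results of these data known, and the grouping of related genes after counts had been seen. Every member is named. Of the related genes, those past the threshold with an absolute log2 fold change over 1 and the 4 with the highest CPM are named, and others where stated. For a member past both limits, the nearest tested rows and the 3 rows with the nearest centred log2 CPM (prior count 2) are named, and nearest rows of other members are given as well.

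All 8987 rows kept by filterByExpr were fitted with edgeR's quasi-likelihood test (TMM, no covariates, Benjamini-Hochberg adjustment, threshold 5e-05). In simulated data it called 139 of 200 changed rows and 0 unchanged rows. The simulation gave every row the same dispersion, so it does not cover rows with a wider spread. Its fold changes were fixed and not matched to the members. The share called therefore does not tell how often changes of their size are found. Standard errors were derived from the F statistic. The fit was repeated with DESeq2, with limma-voom, under other scalings, filters and thresholds, with a replicate block and without each library. The tools were edgeR 4.0.16, DESeq2 1.42.0 and limma 3.58.1 in R 4.3.3, and matplotlib 3.10.9, NumPy 2.4.6 and pandas 2.3.3 in Python 3.11.15.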

Additional observations from a re-analysis of the deposited data

How the results depend on the processing

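Of 127 values of the 8 tested members under alternatives, 125 had the direction and the call of the reported fit. The exceptions, both with TMM factors from the readable windows alone, were *Gcc1* (log2 fold change 0.20) and *Bet1* (-0.31). That scaling lowers the median of all rows to -0.24, and it gave 4 members higher and 3 lower in place of 5 and 2, and 751 rows higher and 2177 lower in place of 1371 and 1365. With a limit of 1 on the absolute log2 fold change as well, the 7 differing members became 1 (*Cadps2*), the 15 related genes 2 and the 2736 rows 1024. At an adjusted p-value under 0.05 the rows were 5248, and members stayed at 7. With at least 10 counts in every library *Cadps2* was not tested and 6 members differed. DESeq2 and limma-voom each called 7 members. Leaving out 1 library gave 7 members in all 6 fits, 12 to 15 related genes and 2226 to 2611 rows. Of 207 values of 13 of the named related genes, 196 held in the same sense, and 1 reversed, *Capza2* at -0.064 when scaled within the windows. *Capza2* also fell short of the threshold without UN-SCC679 replicate 2 or 3 or UN-SCC680 replicate 2 (adjusted p = 0.000166, 0.000108 and 6.09e-05 from edgeR), with library totals alone (5.98e-05) and with the replicate block (6.42e-05). The other exceptions were calls gained, by *Calu* with limma-voom (adjusted p = 1.72e-06), library totals alone (1.72e-05) and scaling within the windows, and by *Sec61b* and *Erp44* with the last of these.

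With the replicate block there were 7 members, 14 related genes and 2523 rows. Deviations of libraries with the same number correlated at -0.0382, -0.000524 and -0.0218, which does not pair them. The order of levels per kilobase was the same in each single library. Depth limits *Dync1i1* in both lines and *Cadps2* in UN-SCC680.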
